A study of Mus musculus with 4 samples.

Results

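The 10 claudin genes followed here were measured in 4 single-cell libraries of mouse intestinal epithelium: Cldn2, Cldn3, Cldn4, Cldn6, Cldn7, Cldn8, Cldn12, Cldn15, Cldn18 and Cldn23. They are 10 of the 33 Cldn genes, and of 31054 genes in all, listed in every count matrix, and were taken by symbol. Each was measured in cells with at least 500 detected genes, at most 20% of counts from mitochondrial genes and at least 1 count of Epcam, the epithelial adhesion gene. That rule left 14386 of 22731 deposited barcodes: 3961 at embryonic day 12.5 (E12.5), 4212 at embryonic day 17.5 (E17.5), 3265 from the adult and 2948 from the irradiated adult. All 4 groups carried the Bmi1-GFP reporter, which marks cells that express the Polycomb gene Bmi1, and sorted epithelial cells went into 10x Chromium version 3 libraries, which count transcripts at their 3′ end. The E12.5 cells came from dissected intestines, the E17.5 cells from small intestine and the adult cells from intestinal tissue. Each group was 1 library, and the sex, the number of animals, the sorting gates, the adult age and the dose and time of irradiation are not given in the sources used here. With 1 library per group no difference has a replicate check and no test was made.

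Claudins are 4-pass membrane proteins whose strands make up the tight junction, the seal between neighbouring epithelial cells. Sealing claudins narrow the path between cells, whereas others line it with pores, and the set an epithelium makes fixes how tight and how ion-selective it is. In the gut, claudin 2 and claudin 15 form pores for sodium and other cations, claudin 3, claudin 4 and claudin 7 are widespread, and claudin 6 is known from embryonic epithelia. In build mm10 the members lie at chrX:139800828-139811386 (Cldn2), chr5:134986214-134987472 (Cldn3), chr5:134945119-134946934 (Cldn4), chr17:23679249-23682446 (Cldn6), chr11:69964779-69967885 (Cldn7), chr16:88560828-88563183 (Cldn8), chr5:5489537-5514958 (Cldn12), chr5:136966616-136975858 (Cldn15), chr9:99689461-99717267 (Cldn18) and chr8:35824712-35826559 (Cldn23).

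The promoters of the member that fell and of the pair that rose most between E12.5 and E17.5 are shown because these 3 genes had the largest folds between those libraries. Each window is the 250 bases before the RefSeq start site in build GRCm38.p6, read 5′ to 3′ on the gene's own strand: Cldn6 at chr17:23679115-23679364, Cldn2 at chrX:139800558-139800807 and Cldn15 at chr5:136967619-136967868, all on the plus strand. The gene spans above come from another annotation, GENCODE, with other starts. The Cldn6 window therefore overlaps its span and the Cldn15 window lies inside its span. Distances below are from the RefSeq start. Capitals mark matches to 6 short motifs searched on both strands, namely TTTATG for caudal homeobox factors (CDX), TATAAA for the TATA box, AGATAA for GATA factors, CAAAGT for the nuclear receptor HNF4, GGGCGG for the GC box and AACCNGTT for grainyhead-like factors (GRHL).
Cldn6: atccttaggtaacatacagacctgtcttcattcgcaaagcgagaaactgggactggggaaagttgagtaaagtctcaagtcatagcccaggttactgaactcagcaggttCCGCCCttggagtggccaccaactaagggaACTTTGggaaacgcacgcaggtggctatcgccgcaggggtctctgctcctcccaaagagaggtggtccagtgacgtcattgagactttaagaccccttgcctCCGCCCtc
Cldn2: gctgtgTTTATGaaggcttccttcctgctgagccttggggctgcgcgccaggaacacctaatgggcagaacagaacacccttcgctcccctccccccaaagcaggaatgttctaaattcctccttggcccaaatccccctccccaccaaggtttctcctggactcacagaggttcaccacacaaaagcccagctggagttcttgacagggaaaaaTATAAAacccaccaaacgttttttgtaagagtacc
Cldn15: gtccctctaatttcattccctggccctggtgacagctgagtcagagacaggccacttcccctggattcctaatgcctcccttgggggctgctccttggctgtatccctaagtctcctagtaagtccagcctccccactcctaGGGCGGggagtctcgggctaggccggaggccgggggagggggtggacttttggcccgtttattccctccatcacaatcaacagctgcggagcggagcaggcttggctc
The Cldn6 window held 1 HNF4 match at 110 bases before the start and GC boxes at 140 and 8 bases. The Cldn2 window held a CDX match at 244 bases and a TATA match at 35 bases before the start. The Cldn15 window held a single GC box at 108 bases. Among all 32536 RefSeq windows of this length the CDX letters stood in 10.8%, TATA in 12.3%, GATA in 9.97%, HNF4 in 12.6%, the GC box in 33.0% and GRHL in 1.79%. A match describes these letters and is not a binding site. Of the 10 members, 8 had a window in the table.

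Depth differed between the libraries. The cells kept held 88558483, 74656730, 30714235 and 40908024 molecules (unique molecular identifiers, UMIs), in the order E12.5, E17.5, adult and irradiated adult, with medians of 19654, 12888, 4296 and 9499.5 UMIs per cell. Levels are therefore given as summed UMIs of a gene per 1000000 UMIs of the cells (CPM), with 95% exact Poisson intervals, and shares of cells after every cell was thinned to 2000 UMIs, which left out 339, 112, 427 and 349 shallower cells. Intervals cover counting error only. UMIs count transcripts at one end and are not scaled by gene length, so a rank between genes is a rank in captured molecules. From 6 to 12 barcodes were shared by any pair of libraries. Clusters were made in each library without Cldn genes or Epcam and named from marker lists, and the E17.5 library also held 452 pancreatic acinar-like and 138 pancreatic islet-like cells, although its label is intestine. Acinar markers summed to 9484 CPM there against 1.92 to 29.3 CPM elsewhere. Its non-epithelial clusters, which included connective tissue, muscle and mesothelial ones, gave 265 cells with a median of 6437 UMIs and no Epcam requirement. Of the thinned cells, 5.47% held a Cldn7 UMI, 4.30% a Cldn15 UMI and 0% to 1.56% a UMI of the other members. Shares of cells at or below those are not read as expression. Cldn15 stood at 35.5 CPM there and 62.5 CPM in the whole library, against 50.1 and 1014 CPM of Cldn7. Whether these clusters make Cldn15 was not tested, so its limit may be too high.

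The make-up of the claudin pool differed between the E12.5 and E17.5 libraries. All 33 Cldn genes together gave 1057 CPM at E12.5, 1649 at E17.5, then 1643 in the adult and 1394 after irradiation. The 10 members made up 99.1%, 95.6%, 99.6% and 99.4% of those counts. Cldn7 was the largest component in every library, at 43.9%, 61.5%, 47.9% and 47.7%. Cldn6 was the second component at E12.5 with 24.8% of claudin UMIs and held 1.08%, 0.339% and 0.549% afterwards. Cldn3 held 17.9% and 14.5% in the embryonic libraries and 31.7% and 29.3% in the adult ones. Cldn2 and Cldn15 together moved from a trace to visible shares: Cldn2 held 0.221%, 3.71%, 2.17% and 5.21%, and Cldn15 held 0.0855%, 3.79%, 6.76% and 2.42%.

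**Figure D1:**
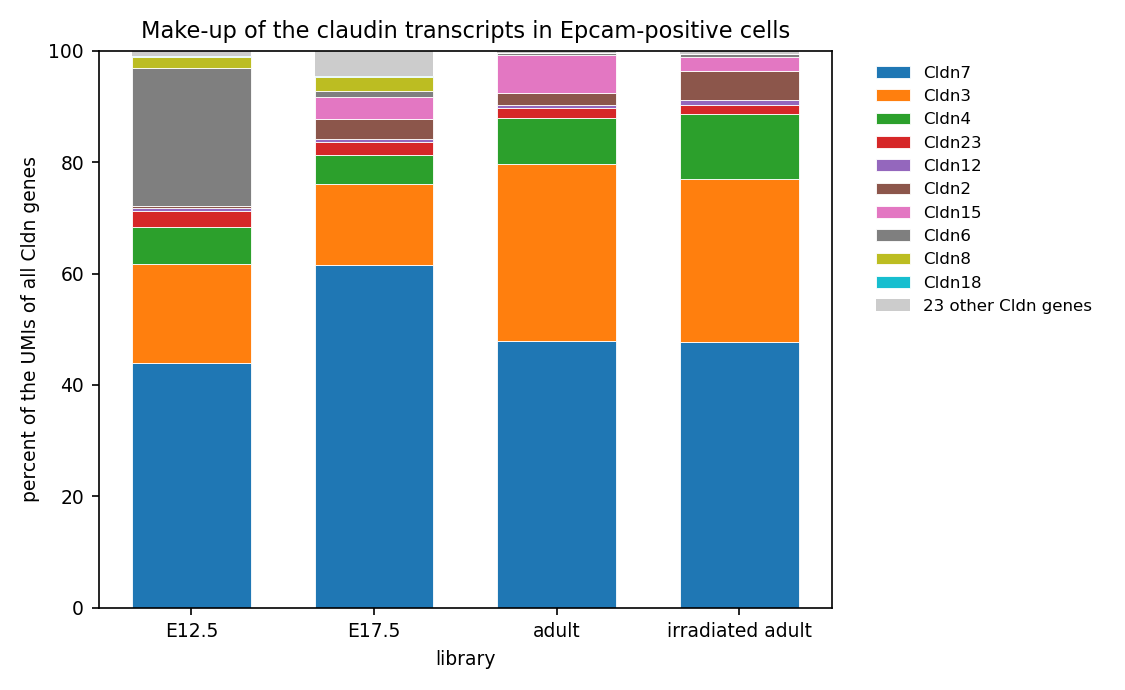
Each bar is 1 library and stacks the percent of UMIs of all Cldn genes that each of the 10 members and the 23 other Cldn genes took in Epcam-positive cells. Cldn6 fills 24.8% of the E12.5 bar and 1.08% of the E17.5 bar, whereas Cldn3 fills 31.7% of the adult bar.

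**Figure D2:**
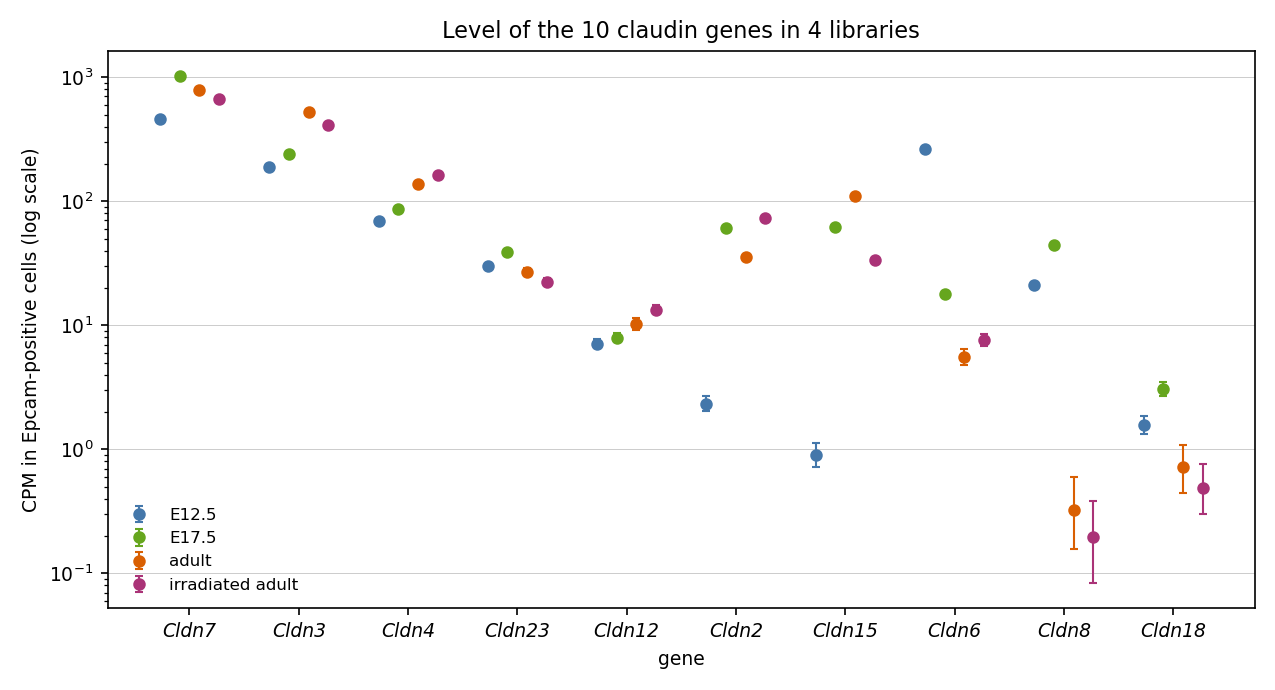
Points are the CPM of each member in Epcam-positive cells of the 4 libraries on a log axis, and bars are exact Poisson 95% intervals of the counts. Cldn6 runs from 262 CPM at E12.5 to 5.57 CPM in the adult, and Cldn2 and Cldn15 run from 2.34 and 0.903 CPM at E12.5 to 61.1 and 62.5 CPM at E17.5.

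Between E12.5 and E17.5, 4 of the 10 members (Cldn2, Cldn7, Cldn8 and Cldn15) were at least 2-fold higher and 1 (Cldn6) was at least 2-fold lower, on log2 of CPM plus a pseudocount of 1. Of the 14464 genes that reached 50 UMIs on one side, 15.6% passed in the higher direction and 16.9% in the lower. The median log2 ratio was 0.51 over the members and -0.21 over all genes. Between E17.5 and the adult, 1 of 10 members was higher (Cldn3) and 3 were lower (Cldn6, Cldn8 and Cldn18), against 13.7% and 14.3% of 13862 genes, with medians of -0.44 for the members and -0.09 for all genes. Between the adult and the irradiated adult, 8 members reached 50 UMIs, of which 1 was higher (Cldn2) and 1 lower (Cldn15), against 3.09% and 5.41% of 12858 genes. These 3 comparisons share the E17.5 and the adult library between them. The libraries also differed in cell mix. Epithelium without a lineage name was 83.1% of E12.5 and 22.7% of E17.5 cells. Enteroendocrine-like cells were 24.3% of E17.5 and 56.0% of adult cells, and enterocyte-like cells 19.5% and 1.90%. Tuft-like cells were 30.1% of adult cells and formed no E17.5 class. The part of this mix in the differences between stages was not tested.

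**Figure D3:**
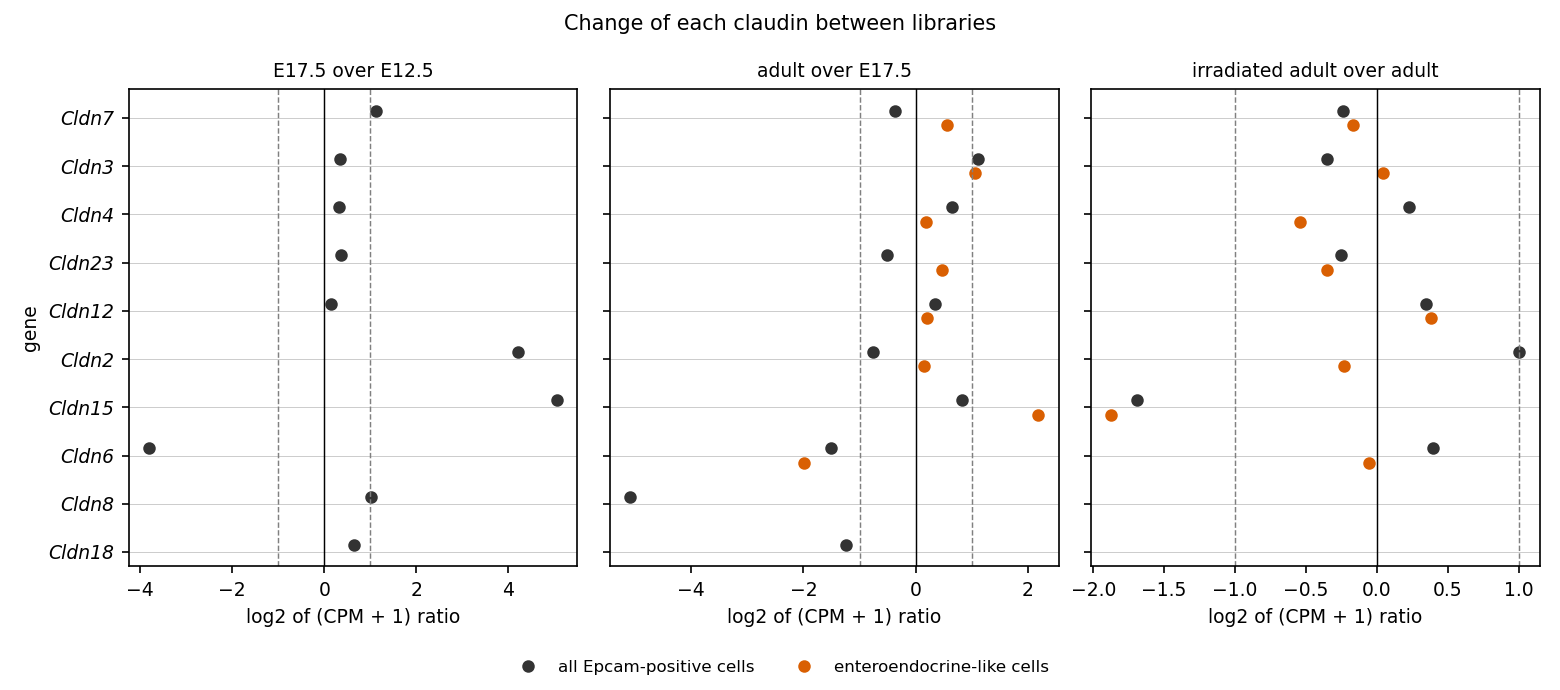
Points are the log2 ratio of CPM plus 1 of each member between 2 libraries, over all Epcam-positive cells (dark) and within the enteroendocrine-like class (orange), for members that reached 50 UMIs on one side. Dashed lines mark 2-fold, and Cldn2, Cldn15 and Cldn6 lie farthest from 0 in the left panel.

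Cldn6, the embryonic claudin, was the one member that fell between E12.5 and E17.5. It stood at 262 CPM (interval 258 to 265) at E12.5, 17.8 (16.8 to 18.8) at E17.5, then 5.57 (4.76 to 6.47) in the adult and 7.65 (6.83 to 8.55) after irradiation. The E12.5 library stood above the others, and the level was 14.7-fold lower at E17.5 (13.9 to 15.6) and a further 3.19-fold lower in the adult (2.72 to 3.77). These folds include the pancreatic cells. At E17.5 acinar-like and islet-like cells held 22.5% and 5.73% of Cldn6 UMIs, from 8.97% and 2.12% of all UMIs. Without the pancreatic and non-epithelial clusters both falls still passed 2-fold. After thinning, 41.5% of E12.5 cells held a Cldn6 UMI, then 5.83%, 1.13% and 2.16%. Unthinned shares were 91.2%, 20.9%, 4.04% and 8.58%. At E12.5 the 9 clusters of epithelium without lineage markers ranged only from 235 to 304 CPM, a 1.29-fold spread (1.22 to 1.37), and the pancreatic progenitor-like cells stood at 251 CPM.

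At E17.5 Cldn6 was unevenly spread over cell classes. Enterocyte-like cells, the absorptive lineage, held 0.906 CPM (0.554 to 1.40) and goblet-like cells, the mucus lineage, 1.28 CPM (0.514 to 2.63). Enteroendocrine-like cells, which secrete gut hormones, held 54.4 CPM (49.1 to 60.1), pancreatic acinar-like cells 44.5 CPM and islet-like cells 48.0 CPM. Non-epithelial clusters of the same library, which should lack the gene, held 3.65 CPM (1.47 to 7.53). Among the 4 epithelial clusters without a lineage name, a cluster of 126 cells led by Spp1 and Neurog3, the endocrine-determining factor, held 155 CPM. A cluster of 150 cells led by Tff2 held 86.8 CPM, and the clusters led by Olfm4, a crypt gene, held 1.08 and 1.22 CPM. Since both Olfm4-led levels lay below that of the non-epithelial clusters, no fold is given against them. In the 201 non-epithelial cells without an Epcam UMI, Cldn6 stood at 0.742 CPM (0.0188 to 4.13) from 1 UMI. That interval takes in both Olfm4-led levels. In the adult, enteroendocrine-like cells held 13.0 CPM (11 to 15.2) and 93.0% of all Cldn6 UMIs, while 982 tuft-like cells, chemosensory cells of the epithelium, held 0 UMIs, for which a limit of 3 counts is 0.633 CPM. In the irradiated adult the enteroendocrine-like class held 12.5 CPM and 80.2% of Cldn6 UMIs.

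Cldn2 encodes a cation and water pore. It stood at 2.34 CPM (2.03 to 2.68) at E12.5, 61.1 (59.4 to 62.9) at E17.5, then 35.7 (33.6 to 37.9) in the adult and 72.7 (70.1 to 75.4) after irradiation. The E12.5 library was far below the other 3, and the rise to E17.5 was 26.1-fold (22.7 to 30.2). That E12.5 level lay below the 2.61 CPM of Cldn2 in non-epithelial clusters at E17.5, so it is not read as expression. The adult level was 1.71-fold lower than that at E17.5, and the irradiated level was 2.04-fold above the adult one (1.90 to 2.18). That last ratio lay on the 2-fold line, with a log2 value of 1.01 on the pseudocount scale. Thinned shares of cells with a UMI were 0.414%, 7.51%, 4.16% and 6.46%.

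Cldn15, the other small intestinal cation pore, stood at 0.903 CPM (0.716 to 1.12) at E12.5, 62.5 (60.7 to 64.3) at E17.5, then 111 (107 to 115) in the adult and 33.7 (31.9 to 35.5) after irradiation. The rise to E17.5 was 69.2-fold (55.5 to 87.4), over an E12.5 level from 80 UMIs that is not read as expression. The adult level was 1.78-fold above that at E17.5 (1.70 to 1.86). The irradiated level was 3.29-fold below the adult one (3.09 to 3.51). Thus the pair stood at like levels at E17.5, with Cldn15 above Cldn2 in the adult and below it after irradiation, in captured molecules. Thinned shares with a Cldn15 UMI were 0.276%, 7.51%, 6.52% and 2.58%. The first and the last lie below the 4.30% of non-epithelial clusters at E17.5, the only library with such a measure. With CPM averaged over single cells in place of summed counts, the adult over E17.5 log2 ratio of Cldn15 was 0.06 against 0.82.

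The cells that held the pore pair differed between the adult libraries. In the adult, 149 crypt base columnar stem-like cells, a cluster led by cell cycle genes such as Mki67 and Top2a, held 61.3% of Cldn15 UMIs and 59.6% of Cldn2 UMIs. That class made up 4.56% of cells and 23.8% of UMIs. It stood at 287 CPM of Cldn15 (274 to 299) and 89.6 CPM of Cldn2 (82.9 to 96.8). The 62 adult enterocyte-like cells held 415 CPM of Cldn15 (388 to 443) and only 9.36 CPM of Cldn2 (5.72 to 14.5). No cluster of the irradiated library was named stem-like, and the 7 stem markers summed to 141 CPM there against 852 CPM in the adult. The 10 enterocyte markers summed to 3221 against 8302 CPM, the 8 goblet markers to 21737 against 4709 CPM and the 7 Paneth markers to 79325 against 53010.4 CPM, with every marker of these lists detected in both libraries. The part of this cell mix in the library differences was not tested. Its 108 enterocyte-like cells, led by Ccnd1, a cell cycle gene, and Apoa4, an enterocyte gene, held 131 CPM of Cldn15 (122 to 141) and 227 CPM of Cldn2 (215 to 240). The 75 irradiated goblet-like cells held 151 CPM of Cldn15 and 159.6 CPM of Cldn2. Paneth-like cells, the antimicrobial cells of the crypt, held 63.8 CPM of Cldn15 (55.7 to 72.7) and 23.1 CPM of Cldn2 (18.3 to 28.7) in 68 adult cells. In 94 irradiated cells they held 38.6 CPM of Cldn15 (34.2 to 43.4) and 112 CPM of Cldn2 (105 to 120). So Cldn2 was higher and Cldn15 lower in the irradiated library in the enterocyte-like and the Paneth-like class, which were led by partly different genes in the 2 libraries. Across whole libraries, fewer cells of a class and less RNA per cell cannot be told apart.

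At E17.5 most UMIs of the pore pair lay in enterocyte-like cells and in epithelium without a lineage name. Enterocyte-like cells held 93.2 CPM of Cldn2 (89.2 to 97.3) and 106 CPM of Cldn15 (102 to 111), which were 45.1% and 50.2% of their UMIs from a class with 29.6% of all UMIs. The epithelium without a lineage name held 38.0% and 34.5% from 30.6% of all UMIs, and its Tff2-led cluster reached 138 CPM of Cldn2 (121 to 158). Goblet-like cells held 54.2 and 62.0 CPM, or 6.51% and 7.29% of the UMIs of the pair from 7.34% of all UMIs. Enteroendocrine-like cells held 22.3 CPM of Cldn2 (19.0 to 26.0) but 1.12 CPM of Cldn15 (0.484 to 2.21). That Cldn15 level lay below the 35.5 CPM found in non-epithelial clusters and the 15.6 CPM of their cells without an Epcam UMI. In the Spp1-led cluster, where Cldn6 was highest, Cldn15 stood at 0.736 CPM, against 80.6 CPM in the Olfm4-led cluster with the least Cldn6. In thinned E17.5 cells, 239 held a Cldn6 UMI, 308 a Cldn15 UMI and 2 held both, where the product of the shares gives 17.95 cells. Cldn2 and Cldn15 were found together in 35 cells, where the product gives 23.1. The smallest of the 3 enterocyte-like clusters, 77 cells led by Apoa4 and Meltf with low counts, held 5.01 CPM of Cldn15 and 123 CPM of Cldn2.

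Among the widespread claudins, Cldn7, a basolateral claudin that binds EpCAM, stood at 464 CPM (460 to 468) at E12.5, 1014 (1007 to 1022) at E17.5, then 787 (777 to 797) in the adult and 666 (658 to 674) after irradiation. It was 2.19-fold higher at E17.5 than at E12.5 (2.16 to 2.21). At E17.5 it was high in enterocyte-like (1290.4 CPM), goblet-like (1226 CPM) and Olfm4-led cells (1289 and 1294 CPM) and low in acinar-like (160.1 CPM) and islet-like cells (226 CPM). Paneth-like cells were also low, at 195 CPM in the adult and 154 CPM after irradiation, against 1059 and 1002 CPM in enterocyte-like cells. All claudins together gave 464 and 499 CPM in the 2 Paneth-like classes. These levels are shares of the UMIs of a class, and Paneth-like cells had medians of 39074 and 98851 UMIs. In counts, adult Paneth-like cells held 685 Cldn7 UMIs in 68 cells. Adult enterocyte-like cells held 2263 in 62 cells, tuft-like cells 3147 in 982 and enteroendocrine-like cells 10039 in 1828. A low CPM there is therefore not read as few molecules per cell.

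Cldn3, a sealing claudin and receptor of a clostridial enterotoxin, stood at 189 CPM (186 to 192) at E12.5, 239 (236 to 243) at E17.5, then 521 (513 to 529) in the adult and 409 (403 to 415) after irradiation. Both adult libraries lay above both embryonic ones, and the adult level was 2.18-fold that at E17.5 (2.13 to 2.22). Tuft-like cells were the highest class, at 1088 CPM (1058 to 1118) in the adult and 976 (928 to 1027) after irradiation, where Cldn3 took 60.7% and 54.5% of claudin UMIs. Tuft-like cells were 30.1% of the adult cells and 9.19% of the irradiated ones. Within enteroendocrine-like cells Cldn3 stood at 159.6 CPM at E17.5, then 335 in the adult and 345 after irradiation. With cells limited to at least 1000 genes and at most 10% mitochondrial UMIs, the adult over E17.5 change of Cldn3 fell below 2-fold.

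Cldn4, a second receptor of that enterotoxin, stood at 69.1 CPM (67.3 to 70.8) at E12.5, 87.0 (84.9 to 89.2) at E17.5, then 138 (134 to 142) in the adult and 162 (158 to 166) after irradiation. It did not change 2-fold in any of the 3 comparisons. The genes lie 39.279 kb apart on chromosome 5 with 0 protein-coding genes between them, yet their classes differed. Enteroendocrine-like cells held 269 CPM of Cldn4 at E17.5, then 306 in the adult and 209.8 after irradiation, and 88.6% and 63.9% of all Cldn4 UMIs in the adult and the irradiated adult, from 39.9% and 49.2% of the UMIs of all genes. Tuft-like cells, the class with the most Cldn3, held 13.1 and 20.2 CPM of Cldn4. Adult stem-like and enterocyte-like cells held 12.1 and 22.9 CPM, whereas irradiated enterocyte-like cells held 151 CPM (141 to 161) and irradiated goblet-like cells 186 CPM (167 to 206).

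**Figure D4:**
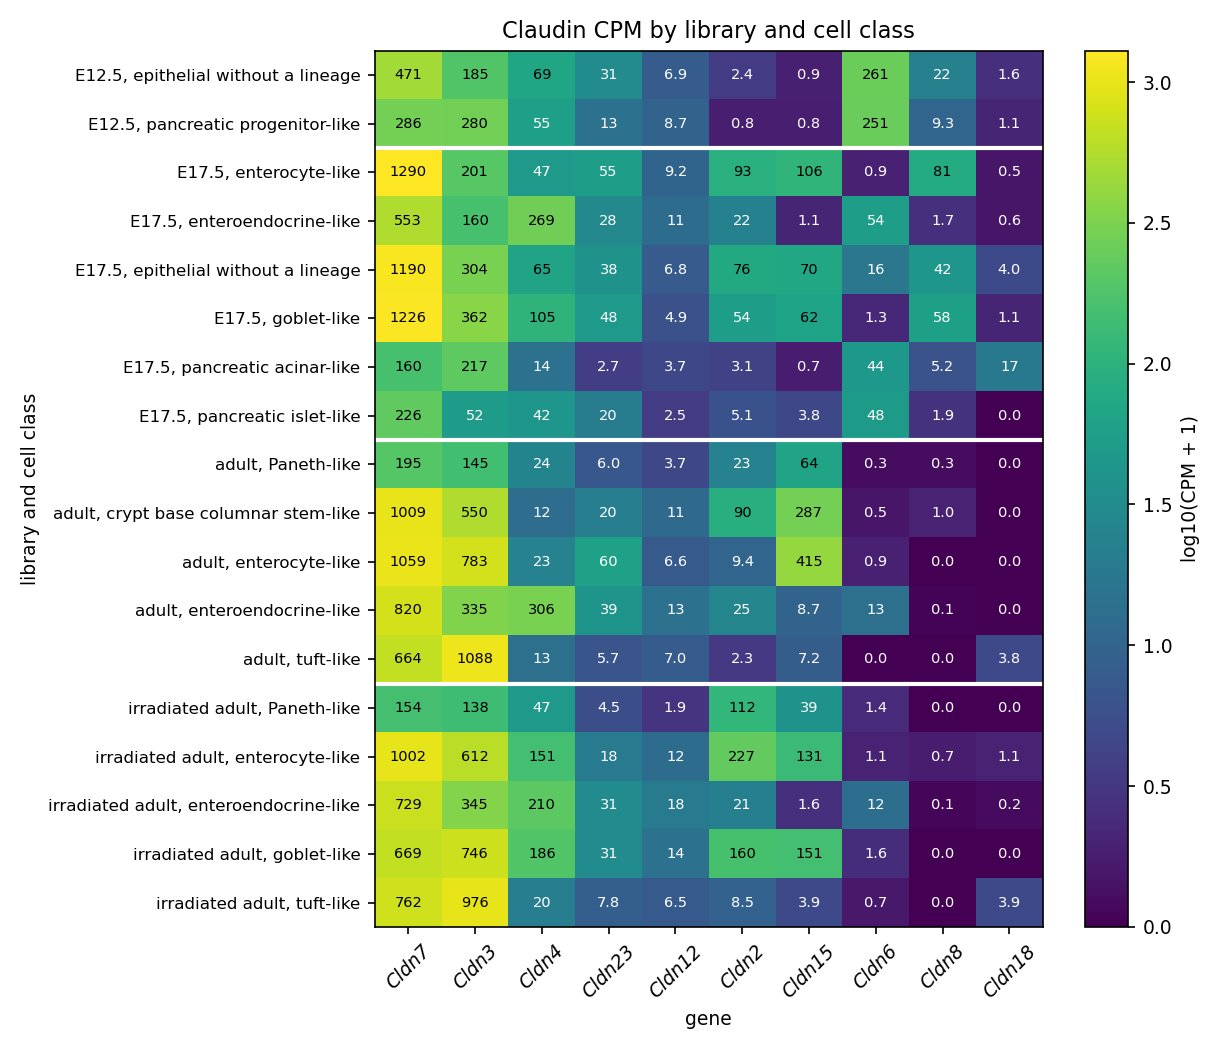
Rows are named cell classes of at least 50 cells in each library and columns the 10 members. Colours are log10 of CPM plus 1 and printed numbers are CPM, with the highest Cldn3 value in adult tuft-like cells (1088) and the highest Cldn15 value in adult enterocyte-like cells (415).

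Cldn8, a cation barrier claudin of kidney tubules and colon, was a gene of the embryonic libraries. It stood at 21.2 CPM (20.2 to 22.2) at E12.5 and 44.1 (42.6 to 45.7) at E17.5, and at 0.326 (0.156 to 0.599) and 0.196 (0.0844 to 0.385) in the adult and the irradiated adult, from 10 and 8 UMIs. The fall from E17.5 to the adult was 136-fold (73.6 to 283). Both adult levels lie below the 3.65 CPM of Cldn8 in non-epithelial clusters at E17.5 and are not read as expression. The size of that fold therefore rests on a few stray counts. At E12.5 the cluster of 109 cells led by Hoxb13, a posterior patterning gene, held 74.9 CPM, 7.88-fold the 9.51 CPM of a cluster led by Sfrp5, Onecut2 and Apoa1 (6.15 to 10.1). At E17.5 the Tff2-led cluster held 166 CPM, enterocyte-like cells 80.9 CPM (77.2 to 84.8), goblet-like cells 57.7 CPM and enteroendocrine-like cells 1.68 CPM. The rise from E12.5 to E17.5 was 2.08-fold (1.97 to 2.20) and had a log2 value of 0.41 with CPM averaged over single cells.

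Cldn18, the claudin of stomach and lung, was low throughout, with 1.58 CPM (1.33 to 1.87), 3.07 (2.68 to 3.49), 0.716 (0.449 to 1.08) and 0.489 (0.299 to 0.755) in the order of the libraries. At E17.5, acinar-like cells held 17.02 CPM and 49.8% of its UMIs, and the Tff2-led cluster 52.7 CPM from 85 UMIs. Before thinning, 17.9% of acinar-like cells held a Cldn18 UMI. Only 1.57% of the 958 cells without a lineage name, which include the Tff2-led cluster, held 1, so few cells carried that level. Without the pancreatic and non-epithelial clusters its adult over E17.5 log2 ratio was -0.68 against -1.24, which is no longer 2-fold. In the adult 18 of its 22 UMIs were in tuft-like cells, at 3.80 CPM (2.25 to 6.0), and after irradiation tuft-like cells held 3.91 CPM (1.43 to 8.51).

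Cldn12 and Cldn23 kept within 2-fold in every library comparison. Cldn12, linked to calcium absorption, stood at 7.13 CPM (6.58 to 7.70), 7.93 (7.30 to 8.59), 10.3 (9.19 to 11.5) and 13.4 (12.3 to 14.5), and its first 2 levels did not differ beyond counting error. Cldn23, a claudin of differentiated surface epithelium, stood at 30.1 (29.0 to 31.3), 38.8 (37.4 to 40.2), 26.9 (25.1 to 28.8) and 22.4 CPM (21.0 to 23.9). Its highest classes were enterocyte-like cells, at 55.2 CPM at E17.5 and 59.9 CPM in the adult, and its level in irradiated enterocyte-like cells was 17.98 CPM.

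The enteroendocrine-like class was present at E17.5 (1025 cells), in the adult (1828) and after irradiation (1829), and so allowed a comparison inside 1 class. From E17.5 to the adult, 2 of 8 measured members were at least 2-fold higher (Cldn3 and Cldn15) and 1 lower (Cldn6), against 10.7% and 10.6% of 11019 genes. Cldn6 was 4.19-fold lower (3.47 to 5.07) and Cldn3 2.10-fold higher (1.97 to 2.25), as in whole libraries. The E17.5 class included 2 clusters, 259 cells, with islet markers among their top genes. The Sst-led one held the most Cldn6 of the 7 E17.5 endocrine clusters, 106 CPM, and the Ppy-led one the least Cldn3, 89.5 CPM. Without these clusters, 6 member ratios within the class moved beyond their counting interval and 14 kept within it. Only E17.5 cells were left out, so the ratios of irradiated adult over adult could not move and are among the 14. The Cldn15 ratio of 7.72 (3.78 to 18.3) rested on 106 and 8 UMIs, and its adult level of 8.66 CPM was close to the 7.17 CPM of adult tuft-like cells. No background cells were measured in the adult libraries, so these low levels are not read as expression. With coarser clusters that ratio reversed, to a log2 value of -1.48. From the adult to the irradiated adult, 0 members were higher and 1 was lower (Cldn15, from 8.66 to 1.64 CPM), against 1.58% and 1.91% of 11536 genes. That call rests on the same low adult level and has the same limit. Cldn4 was 1.46-fold lower (1.40 to 1.53), Cldn2 1.18-fold lower (1.02 to 1.37) and Cldn3 differed by 1.03-fold (0.990 to 1.07). The 2-fold Cldn2 difference of the whole libraries was therefore not seen inside this class. In tuft-like cells 3 members were measured from the adult to the irradiated adult and 0 passed in either direction, against 1.48% and 1.58% of 6887 genes.

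Endocrine subtypes differed in their claudins. The clusters with at least 1000 CPM of Tph1, the serotonin-synthesis enzyme of enterochromaffin cells, held 378 and 501 CPM of Cldn4 at E17.5, then 609 and 676 in the adult and 249.6 and 448 after irradiation. The other endocrine clusters held 66.9 to 329 CPM, 67.7 to 202 CPM and 88.4 to 169 CPM in the same libraries. Clusters led by Sst, the somatostatin gene, held 66.9 CPM of Cldn4 at E17.5, then 67.7 in the adult and 93.1 after irradiation. A second Sst-led cluster at E17.5, which had islet markers among its top genes, held 329 CPM. Sst-led clusters held the most Cldn6 at E17.5, 97.5 and 106 CPM, and in the adult, 23.8 CPM, whereas a Cartpt-led cluster was highest after irradiation, at 17.9 CPM against 15 in the Sst-led one. In the adult, Cldn2 was lowest in the clusters rich in Cck, the cholecystokinin gene, but not in Gip, at 1.54 and 5.0 CPM against 12.9 to 50.7 CPM in the other endocrine clusters. After irradiation 2 such clusters held 1.5 and 3.43 CPM, and another, led by Gcg, the glucagon gene, held 13.8 CPM, close to the 12.9 CPM of the Sst-led one. At E17.5 the Gcg-led cluster with Cck stood at the median of the 7 endocrine clusters, 9.48 CPM, with a lowest value of 2.23 CPM in the Sst-led cluster with islet genes. Clusters rich in Gip, the hormone of K cells, held 41.7 CPM of Cldn2 at E17.5, then 44.9 and 50.7 CPM in the adult and 34.0 and 50.7 CPM after irradiation. The adult cluster at 50.7 CPM, led by Slfn8 and Rfx6, rested on 77 Cldn2 UMIs in 568 cells. It also held the most Cldn15, 16.5 CPM, and the least Cldn3, Cldn6 and Cldn7 of the adult endocrine clusters. The highest Cldn2 levels lay outside the Gip-rich clusters at E17.5, at 48.0 CPM (34.8 to 64.4) in a Reg4-led cluster, and after irradiation, at 75.0 CPM in an Afp-led cluster. These clusters were described after their values were seen.

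**Figure D5:**
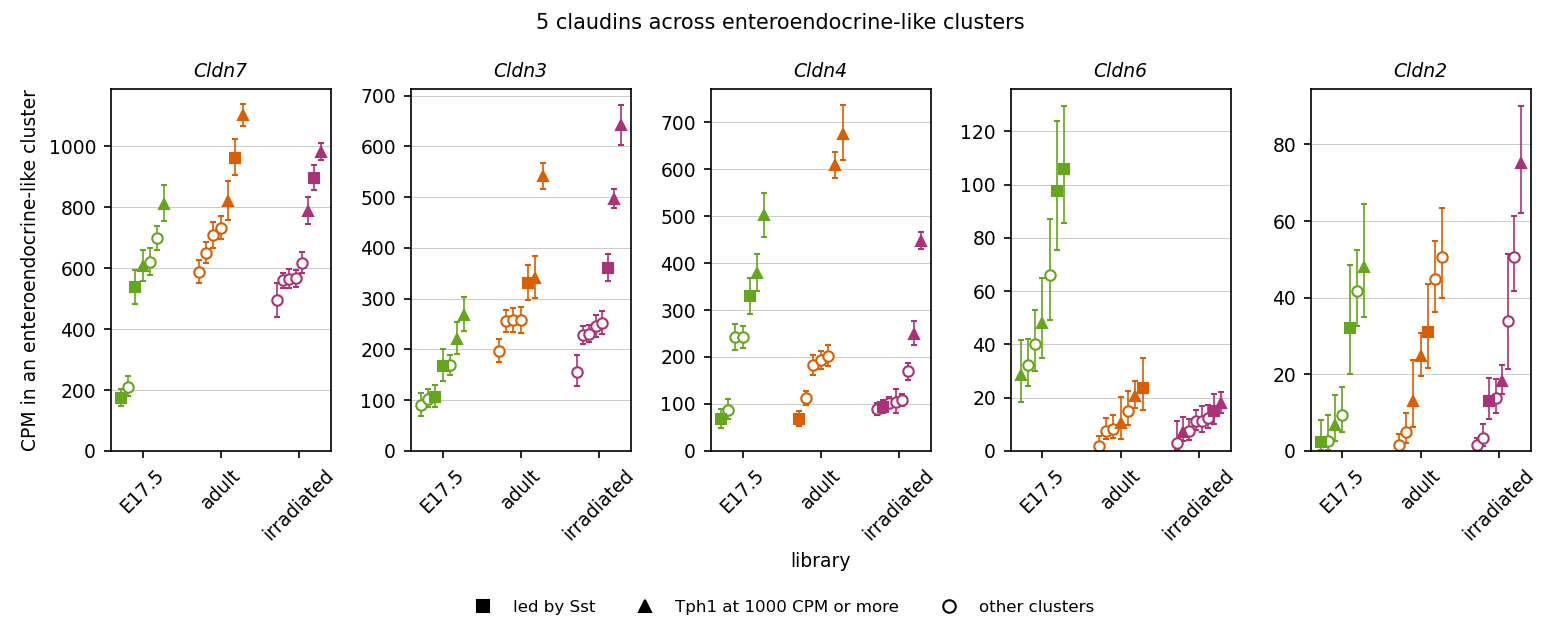
Each point is 1 enteroendocrine-like cluster, at its CPM (vertical axis) with the exact Poisson 95% interval, grouped by library and sorted by level. Squares are Sst-led clusters and triangles clusters with at least 1000 CPM of Tph1, which hold the highest Cldn4 values in each library.

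The number of members seen per cell was similar between libraries. At 2000 UMIs per cell the mean was 1.59, 1.55, 1.78 and 1.75 of the 10 members, and 13.0%, 15.2%, 7.40% and 9.20% of cells held none. By class, 42.5% of E17.5 acinar-like and 50.7% of islet-like cells held none, against 4.29% of enterocyte-like cells.

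Of the 23 other Cldn genes, 3 reached 200 UMIs in a library. Cldn10, an ion-pore claudin of kidney and exocrine glands, held 2.95 CPM at E12.5 and 64.96 CPM at E17.5, with 639.7 CPM in acinar-like cells against 1.22 CPM in enterocyte-like cells. It held 0 UMIs in the adult, for which a limit of 3 counts is 0.0977 CPM. Cldn9, a gene 0.137 kb from Cldn6 on chromosome 17, held 3.37, 1.84, 4.53 and 4.57 CPM in the order of the libraries. Its enteroendocrine-like level was 10.7 CPM at E17.5, then 9.97 in the adult and 7.25 after irradiation. Cldn34c1 held 2.55, 0.656, 0.130 and 0.147 CPM. Of the remaining 20 genes, 7 had no UMI in any library.

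Beside the claudins, a list of 30 tight junction and adhesion genes was read the same way. From E12.5 to E17.5, 3 of 29 measured genes were at least 2-fold higher (Tjp3, Marveld3 and Cdh17) and 4 lower (Jam3, Cgnl1, Afdn and Grhl2), against 15.6% and 16.9% of all genes, with a median log2 ratio of -0.32 against -0.21 over all genes. Cdh17, the liver-intestine cadherin, went from 29.9 to 236 CPM, and Jam3, a junctional adhesion molecule, from 22.3 to 4.45 CPM. From E17.5 to the adult 2 of 29 were higher (Marveld3 and Ildr1) and 4 lower (Jam3, Cgnl1, Pard6b and Crb3), against 13.7% and 14.3% of all genes. Ildr1, a tricellular junction gene, went from 10.5 to 41.6 CPM. From the adult to the irradiated adult 0 of 28 were higher and 1 was lower, against 3.09% and 5.41% of all genes, so in these 3 comparisons the share of the list called in either direction did not exceed that of all genes. The lower gene, F11r, which encodes junctional adhesion molecule A, went from 90.8 to 44.6 CPM. It went from 96.4 to 46.4 CPM in enteroendocrine-like cells and from 165 to 70.4 CPM in tuft-like cells. Epcam itself stood at 1336, 1856, 1444 and 1069.9 CPM.

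Transcription factors of gut epithelium were read by level only. Cdx1, a caudal homeobox factor of the intestine, stood at 1.05, 80.4, 113 and 71.9 CPM in the order of the libraries, whereas its relative Cdx2 stood at 305, 179, 103 and 87.3 CPM. Hnf4a stood at 24.5, 75.1, 100.4 and 103 CPM and Hnf4g at 21.6, 57.0, 29.5 and 18.7 CPM. Vdr, the vitamin D receptor, stood at 0.147, 5.89, 81.2 and 45.5 CPM, and Klf4, a factor of differentiated cells, at 47.8, 43.7, 354 and 435 CPM. Further factors were Elf3, an epithelial ETS factor, at 55.7, 185, 208 and 210.3 CPM, Klf5 at 193 to 263 CPM, Gata4 at 20.02 to 41.6 CPM and Gata6 at 67.4 to 128 CPM. Sox2, a foregut factor, stood at 0.497 and 0.0670 CPM in the embryonic libraries and had no UMI in the adult ones.

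Genes with the profile most like each member were sought over 18 groups of library and class, by Pearson's r of log2 of CPM plus 10. The search covered 6160 genes with at least 50 CPM in some group. These groups share libraries, so each r is a description. The profile of Cldn6 was nearest to Qk (0.97), Myh10 (0.97) and Fermt2 (0.96), that of Cldn8 had Mylk3 (0.97) and Lcp1 (0.93) among its nearest 3, and that of Cldn7 was nearest to Ifngr2 (0.93), Ech1 and Hook2 (both 0.91). Cldn3 was nearest to Aup1, Lima1 and Dsg2, a desmosomal cadherin (0.91 each), and Cldn4 to Grpel2 (0.90), the keratin gene Krt7 (0.88) and Gsdme (0.85). Cldn15 was nearest to Sfn, Aoc1 (0.88 each) and Ppp1r14d (0.87), and Cldn2 to Pglyrp1 (0.88), Gmds (0.82) and Bhlhe40 (0.81). Cldn23 had Dpp4 (0.89), a brush border peptidase, and Nipsnap3b (0.89) among its nearest 3. Cldn12 was nearest to Mknk2 (0.87), Klf6 (0.86) and Zcchc6 (0.83), and Cldn18 to Dhx34 (0.90), Trbc2 and Hba-a1 (0.88 each). The highest group levels of Cldn12 and Cldn18 were only 17.7 and 17.02 CPM, little above the 10 CPM added before the log. Their r values thus rest on low levels. Among members, Cldn2 and Cldn15 had an r of 0.67, Cldn7 and Cldn23 of 0.73, and Cldn6 and Cldn15 of -0.65 over these groups.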

How the data were processed

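Bmi1-GFP mouse intestinal epithelial cells from E12.5, E17.5, adult and irradiated adult animals were measured, 1 library each. The deposited matrices hold raw UMI counts per gene and barcode, made by the authors with Cell Ranger 3.1.0 and build mm10, per the submitters' processing notes; filters before deposit are not given in the sources used here. Counts were summed over the kept cells and divided by their total (CPM); intervals are exact Poisson for levels, exact Clopper-Pearson for shares and exact conditional for ratios. A change means at least 2-fold on log2 of CPM plus 1, with at least 50 UMIs in either library; the calling script was tested on simulated data. Cells were clustered per library (scanpy 1.11.5, 2000 variable genes, 30 components, Leiden resolution 1); the naming rules were revised after the clusters were seen, and classes carry rebuilt names. Putative doublets were kept, because Scrublet's automatic threshold marked 0% to 0.565% of cells. The members, gene lists and markers were chosen with earlier results of these data known. All members, other Cldn genes with 200 UMIs, the 2 extremes per direction of the junction list and the 3 nearest profiles are named, except a few genes that are not reported here. Alternatives covered cell filters, doublets, scaling (edgeR 4.0.16 TMM), pseudocount, UMI minimum, clustering and thinning. With 1 library per group, intervals measure counting error and not the spread between animals.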

Additional observations from a re-analysis of the deposited data

How the results depend on the processing

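No paired analysis was possible because each group has 1 library and no test was made. Over the counts of members past 2-fold, 78 values under alternatives kept within 1.5 times of the value reported and 6 did not. The number higher in the adult than at E17.5 was 0 with at least 1000 genes and at most 10% mitochondrial UMIs. The number higher at E17.5 than at E12.5 was 2 with CPM averaged over single cells. The number higher in the irradiated adult was 0 with that average, 0 with totals without mitochondrial and ribosomal protein genes and 0 with a pseudocount of 10 CPM, and the number lower in the adult than at E17.5 was 1 with that pseudocount. Of the member ratios between libraries, 234 kept within their counting interval and 126 moved beyond it. Among ratios called at least 2-fold in the reported setting, 0 reversed. A change of sign in the others was not counted. Leaving out the non-epithelial and pancreatic clusters moved 18 of the member ratios between libraries and kept 12. The 2 adult libraries held no such clusters. Their ratios to each other could not move and are among those kept. Within enteroendocrine-like cells 84 kept, 15 moved and 1 reversed. Those kept include ratios of irradiated adult over adult that could not move when only E17.5 clusters were left out. The reversed one was Cldn15, adult over E17.5, with a log2 ratio of -1.48 at Leiden resolution 0.5. There the E17.5 class held 1248 cells in place of 1025. The calls of Cldn2, Cldn15 and Cldn6 between E12.5 and E17.5 held in all 14 alternatives, that of Cldn7 in 13 and that of Cldn8 in 11. The calls of Cldn8 in the adult and of Cldn15 under irradiation held in all 14, Cldn3 and Cldn6 in the adult in 13, Cldn18 in 12 and Cldn2 after irradiation in 11. TMM scaling moved the median of all genes by 0.11 (log2) between E12.5 and E17.5. Shares of cells depend on the depth they are thinned to: 109 of 120 moved beyond their interval. The alternatives that left out clusters of low UMIs or mixed markers, or the 2 E17.5 endocrine clusters with islet markers, were chosen after seeing the data. Other causes were not tested. Depth limits Cldn8 and Cldn18 in the adult libraries, at 8 to 22 UMIs.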
